A study of Mus musculus with 3 samples.

Results

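The genes described here are 10 transcription factor genes that mark granule cells and other excitatory neurons of the hippocampus: Prox1, Neurod1, Neurod2, Neurod6, Zbtb20, Bcl11a, Bcl11b, Rfx3, Glis3 and Mef2c. They were chosen by name, and all 10 had a row among the 32531 genes of the count tables and passed the filter on low counts. Their levels were read in ribosome-bound RNA that was immunopurified from the dentate gyrus of untreated adult Penk-TRAP NIDA186 mice on the C57BL/6J strain. The line carries a transgene in which regulatory sequence of the proenkephalin gene Penk drives Rpl10a, a ribosomal protein, fused to EGFP, and an antibody against EGFP pulls down the tagged ribosomes with their RNA. The tag is therefore meant to be made where that DNA is active, and not in a cell class chosen by the factors studied here. All 3 libraries belong to 1 group, named replicates 1 to 3. Whether each came from its own animal or animals is not stated, and their spread, with every p-value built on it, may therefore be only technical. No input or unbound RNA was analysed here, so nothing below is an enrichment over the tissue, and the results are levels and their spread.

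Transcription factors of this kind bind DNA at short motifs and keep the gene programme of a neuron type switched on after the cell has stopped dividing. In the dentate gyrus, Prox1 is known for holding granule cells in their fate and away from that of CA3 pyramidal cells. The NeuroD proteins are basic helix-loop-helix factors that pair with E proteins and bind E-boxes, the motif CANNTG. Neurod1 is known for the survival and maturation of newborn granule cells, Neurod2 for the maturation of excitatory synapses, and Neurod6 as a gene of differentiated pyramidal neurons of the cortex and hippocampus.

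The libraries differed in depth, with 5348761, 19195559 and 11059982 counts on genes in replicates 1 to 3. Of all reads listed, 16.3, 38.2 and 21.1% lay on genes, and 8795, 14252 and 12019 genes had at least 10 counts. Replicate 1, the shallowest, also stood apart from the others across the 8155 tested genes, with Spearman correlations of log2 CPM of 0.637 with replicate 2 and 0.605 with replicate 3, against 0.813 between replicates 2 and 3. The 10 genes together took 0.248, 0.327 and 0.200% of gene counts. Each had at least 194 counts in every library, so counting error was small beside the spread between libraries. For the lowest count, that of Neurod6 in replicate 1, the level was 45.7 CPM with an exact 95% Poisson interval of 39.5 to 52.6 CPM, which covers counting error only.

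The 3 NeuroD genes are close relatives whose levels came apart between libraries, and Prox1 is known for holding granule cells in their fate. The promoters of these genes are therefore shown. Each runs from 250 bases before to 50 bases after a transcription start in RefSeq (GRCm38.p6), written 5′ to 3′ on the strand of the gene, with E-boxes in capitals. All lie on the minus strand.
Neurod1 (chr2:79456587-79456886): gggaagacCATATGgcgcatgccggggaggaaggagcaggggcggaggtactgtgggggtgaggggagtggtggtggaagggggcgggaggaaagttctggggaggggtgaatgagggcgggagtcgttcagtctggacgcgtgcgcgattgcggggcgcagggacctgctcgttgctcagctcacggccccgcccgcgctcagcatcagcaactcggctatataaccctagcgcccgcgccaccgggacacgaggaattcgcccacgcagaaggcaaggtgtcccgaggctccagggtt
Neurod2 (chr11:98329596-98329895): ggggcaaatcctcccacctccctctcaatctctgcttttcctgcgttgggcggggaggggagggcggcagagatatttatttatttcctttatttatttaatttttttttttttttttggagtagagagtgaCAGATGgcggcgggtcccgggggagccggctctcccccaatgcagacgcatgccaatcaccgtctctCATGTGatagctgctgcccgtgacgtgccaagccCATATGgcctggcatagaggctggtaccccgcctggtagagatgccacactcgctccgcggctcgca
Neurod6 (chr6:55681214-55681513): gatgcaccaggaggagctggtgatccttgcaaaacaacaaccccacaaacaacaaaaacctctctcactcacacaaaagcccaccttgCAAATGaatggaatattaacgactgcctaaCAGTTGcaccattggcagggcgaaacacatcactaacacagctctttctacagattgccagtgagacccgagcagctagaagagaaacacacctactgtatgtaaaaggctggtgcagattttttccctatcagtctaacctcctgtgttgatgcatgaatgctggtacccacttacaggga
Prox1, upstream start (chr1:190170778-190171077): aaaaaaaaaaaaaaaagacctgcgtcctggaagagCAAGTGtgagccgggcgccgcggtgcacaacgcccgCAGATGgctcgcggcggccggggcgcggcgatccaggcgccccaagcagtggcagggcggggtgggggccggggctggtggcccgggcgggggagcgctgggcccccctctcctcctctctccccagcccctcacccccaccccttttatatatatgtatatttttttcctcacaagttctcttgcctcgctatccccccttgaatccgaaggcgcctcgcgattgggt

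The E-box is the same motif on both strands, and it occurred 1 time in the Neurod1 window, 3 times in that of Neurod2, and 2 times each in those of Neurod6 and of the upstream Prox1 start. The window of the other Prox1 start (chr1:190169466-190169765) held 0. It is common: 72.3% of 32851 RefSeq promoter windows of this length hold at least 1, as do 9 of the 13 windows that RefSeq lists for the 10 genes, all of which matched by symbol. The narrower form CATCTG, searched on both strands and contained in the E-box, was found in 3 of the 13 windows, against 17.2% of all windows. The Neurod6 window had 3 CpG pairs and a GC content of 46.3%, whereas that of Neurod1 had 26 CpG pairs and 66.7%, so these close relatives differ in promoter composition. A match is only a description of the sequence, and binding was not measured.

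Levels of different genes were compared per length, as CPM (counts scaled to library size with TMM factors) per kb of merged exon. Of the 10 genes, 6 were called above the median tested gene and 0 below it (limma TREAT, log2 threshold 1, adjusted p threshold 0.05). Counts of genes above or below the median gene are such calls throughout. The background was 10.6% of 8155 tested genes above and 4.19% below. The members had been chosen with earlier results of these data known. In order of level, the 6 were Neurod2, Prox1, Neurod6, Rfx3, Neurod1 and Bcl11b, and the 4 that did not pass were Zbtb20, Mef2c, Bcl11a and Glis3.

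**Figure D1:**
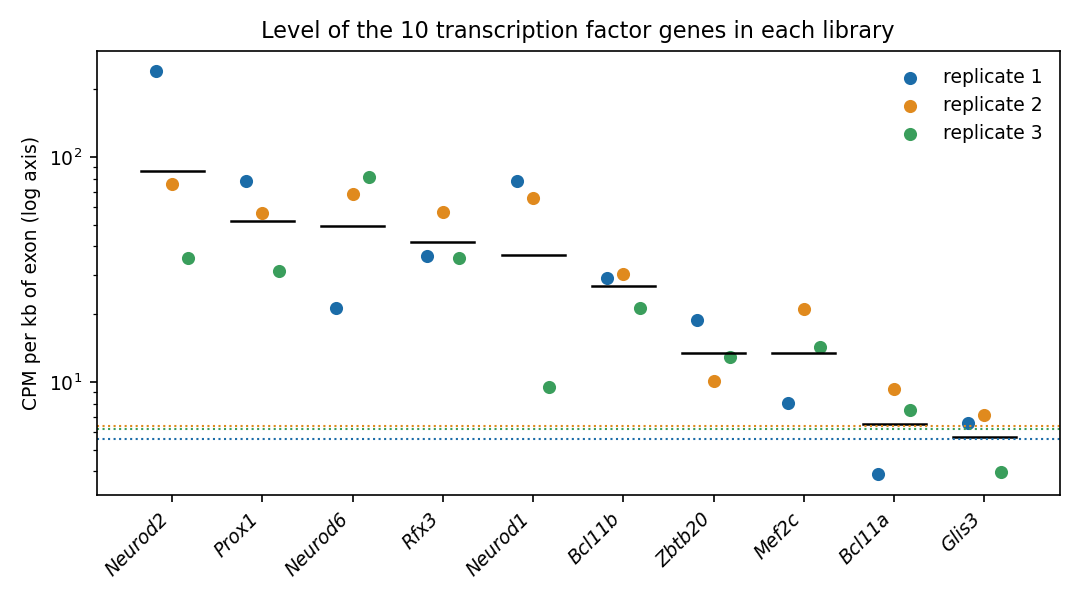
Level of each gene in each library, as CPM per kb of merged exon on a log axis; points are the 3 libraries, black bars the geometric mean, and dotted lines the median tested gene of each library in the same colour. Neurod2 runs from 241 in replicate 1 to 35.6 in replicate 3, while Neurod6 runs the other way, from 21.3 to 81.1.

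Prox1 (chromosome 1, 190118035 to 190170714, minus strand, GRCm38) is the homeodomain factor of granule cells. It had 2792, 10869 and 3047 counts in replicates 1 to 3, or 78.5, 56.6 and 31.1 CPM per kb. All 3 libraries lay well above their median gene, with replicate 3 the lowest. The log2 level above the median gene was 3.10 (SE 0.43, adjusted p = 4.81e-04, limma), higher in 3 of 3 libraries, at the 95.4th, 95.3rd and 89.4th percentile of tested genes. In replicate 3 the 9 other granule cell markers examined also had their lowest summed level, 421 CPM. The sum was 732 CPM in replicate 1 and 929 in replicate 2. The match holds for the sum only: their median log2 CPM per kb was 1.497, 3.364 and 2.165 in replicates 1 to 3. That median was thus lowest in replicate 1, where Prox1 was highest. Of those 9 markers, 4 passed the filter, and C1ql3 was at 0 counts in replicate 1. Prox1 is also known from some GABAergic interneurons, whose 8 markers summed to 498, 322 and 443 CPM, with Pvalb, Vip and Npy at 0 counts in replicate 1. The part of either marker group in the level of Prox1 was not tested. In such mixed RNA, fewer cells of a type and less RNA per cell cannot be told apart.

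The NeuroD genes were high, but not in the same libraries. Neurod2 (chromosome 11, 98325415 to 98329648, minus strand) had 241, 76.0 and 35.6 CPM per kb in replicates 1 to 3, from 3212, 5473 and 1309 counts. Replicate 1 was the highest by far, yet all 3 libraries exceeded their median gene. The log2 level was 3.85 (SE 0.48, adjusted p = 4.57e-05, limma), the highest of the 10, though without replicate 1 it was 3.55, below the 4.06 of Neurod6. Neurod1 (chromosome 2, 79452521 to 79456751, minus strand) had 78.2, 65.7 and 9.53 CPM per kb, from 905, 4105 and 304 counts. Replicate 3 was low, within a factor of 2 of its median gene of 6.18 CPM per kb. Its log2 level was 2.60 (SE 0.55, adjusted p = 0.0287, limma). Of the merged exon bases of Neurod1, 13.0% are shared with exons of Cerkl or of the opposite-strand noncoding gene Gm26755 in GENCODE vM21. Gm26755 was not among the genes counted. HTSeq can set reads on the 201 bases shared with Cerkl aside as ambiguous, so the Neurod1 level is less certain. Neurod6 (chromosome 6, 55677822 to 55681263, minus strand) showed the opposite order, with 21.3, 68.4 and 81.1 CPM per kb from 194, 3368 and 2038 counts. It was lowest in replicate 1, and its log2 level was 3.03 (SE 0.50, adjusted p = 0.00273, limma).

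As a share of the summed NeuroD level per kb, which needs no scaling between libraries, Neurod2 made up 70.8% in replicate 1, 36.2% in replicate 2 and 28.2% in replicate 3. Neurod6 made up 6.25, 32.6 and 64.2%, and Neurod1 23.0, 31.3 and 7.55%. The leading NeuroD gene was thus Neurod2 in replicates 1 and 2 and Neurod6 in replicate 3. Replicate 2, the deepest library, held nearly equal parts of the 3. On the log2 scale Neurod2 minus Neurod6 was 3.50, 0.15 and -1.19 in replicates 1 to 3, so the mean difference of 0.82 was smaller than its SD of 2.41 (n = 3) and changed sign without replicate 1 (-0.52). Neurod6 minus Neurod1 was likewise within its spread, at 0.42 (SD 2.50), with -1.87, 0.06 and 3.08. Only Neurod2 minus Neurod1 kept its sign in 3 of 3 libraries, at 1.24 (SD 0.90). Pyramidal cell markers were summed beside Neurod6. The 5 CA3 markers summed to 75.7, 253 and 189 CPM, lowest in replicate 1 as Neurod6 was, with Iyd at 0 counts in replicate 3. The match holds for the sum only: their median log2 CPM per kb was 1.86, 1.84 and 3.02, about equal in replicates 1 and 2. The 5 CA1 markers summed to 169, 171 and 255 CPM, with Fibcd1 at 0 counts in replicate 1. Their part in the Neurod6 level was not tested.

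**Figure D2:**
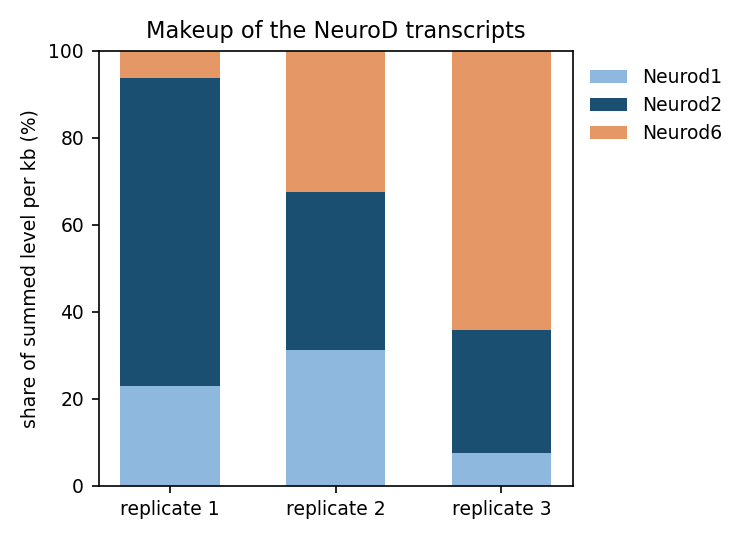
Share of Neurod1, Neurod2 and Neurod6 in their summed level per kb of exon, in percent, for each of the 3 libraries. Neurod2 takes 70.8% in replicate 1, and Neurod6 takes 64.2% in replicate 3.

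Rfx3, Bcl11b and Glis3 were the most even of the 10. Rfx3 (chromosome 19, 27761721 to 28011166, minus strand), a winged-helix factor known for genes of cilia, had 36.2, 57.0 and 35.5 CPM per kb from 1696, 14404 and 4575 counts. Replicate 2 was the highest, and the log2 level of 2.80 (SE 0.42, adjusted p = 0.00169, limma) was above 0 in 3 of 3 libraries. Bcl11b (chromosome 12, 107910403 to 108003602, minus strand), also called Ctip2, is a zinc finger factor needed in the mouse for the development of granule cells. It had 29.1, 30.1 and 21.4 CPM per kb from 1001, 5591 and 2025 counts, all above the median gene. Its log2 level was 2.14 (SE 0.44, adjusted p = 0.0485, limma), just past the threshold. Glis3 (chromosome 19, 28258851 to 28680077, minus strand) encodes a Krüppel-like zinc finger factor known best from the pancreatic beta cell. It had 6.53, 7.13 and 3.98 CPM per kb from 245, 1443 and 411 counts. Those values straddled the median gene, with replicates 1 and 2 above it and replicate 3 below, at a log2 level of -0.08 (SE 0.58, adjusted p = 0.999, limma).

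Zbtb20, Mef2c and Bcl11a have long or many annotated transcripts, and for the first 2 the result turned on the length used. Zbtb20 (chromosome 16, 42875881 to 43642602, plus strand), a zinc finger repressor known for setting hippocampal identity in the mouse, had 18.9, 10.04 and 12.9 CPM per kb from 2464, 7068 and 4628 counts. It lay above the median gene in 3 of 3 libraries, at a log2 level of 1.16 (SE 0.43, adjusted p = 0.714, limma). Its merged exons span 30730 bases, of which the longest coding sequence takes 2223. Per kb of that coding sequence the log2 level was 3.20 (adjusted p = 2.60e-04), and without any length correction 3.70 (adjusted p = 1.09e-05). Mef2c (chromosome 13, 83504034 to 83667080, plus strand), a MADS-box factor that answers to neuronal activity and limits synapse number, had 8.06, 21.1 and 14.2 CPM per kb from 537, 7597 and 2612 counts. Replicate 1 was the lowest, close to its median gene, and the log2 level was 1.16 (SE 0.44, adjusted p = 0.724, limma). It passed per kb of coding sequence (2.85, adjusted p = 0.00194), without length correction (2.73, adjusted p = 0.00276) and without replicate 1 (1.96, adjusted p = 0.0435). Mef2c is also known from microglia and endothelium. The 6 microglial markers summed to 6.84, 7.55 and 38.3 CPM with 4 of 6 at 0 counts in replicate 1 and 2 of 6 in replicate 3. The 6 vascular markers summed to 415, 959 and 344 CPM, with Cldn5 and Pecam1 at 0 counts in replicate 1. The part of both in the Mef2c level was not tested. Bcl11a (chromosome 11, 24078056 to 24174123, plus strand), a zinc finger relative of Bcl11b, had 3.88, 9.31 and 7.53 CPM per kb from 217, 2810 and 1159 counts. It lay below the median gene in replicate 1 and above it in the others (log2 level 0.11, SE 0.51, adjusted p = 0.999, limma).

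Per kb of coding sequence and without length correction, 6 of the 10 genes were also called above the median gene, but a different 6. Per kb of coding sequence, Zbtb20 and Mef2c passed in place of Neurod1 (2.21, adjusted p = 0.0939) and Bcl11b (2.01, adjusted p = 0.0727), against a background of 12.4% of tested genes. With no length correction, Zbtb20 and Mef2c passed in place of Neurod1 (1.66, adjusted p = 0.333) and Neurod6 (1.73, adjusted p = 0.241), against 13.9%. Neurod2, Prox1 and Rfx3 passed on all 4 length scales examined. The count of 6 became 7 without replicate 1 (background 14.8%), 2 without replicate 2 (7.77%) and 4 without replicate 3 (7.88%). Without replicate 2, the calls of Neurod1 (adjusted p = 0.360), Neurod6 (0.0918), Bcl11b (0.300) and Rfx3 (0.0533) ended. Without replicate 3, those of Neurod6 (0.0605) and Bcl11b (0.0964) ended.

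**Figure D3:**
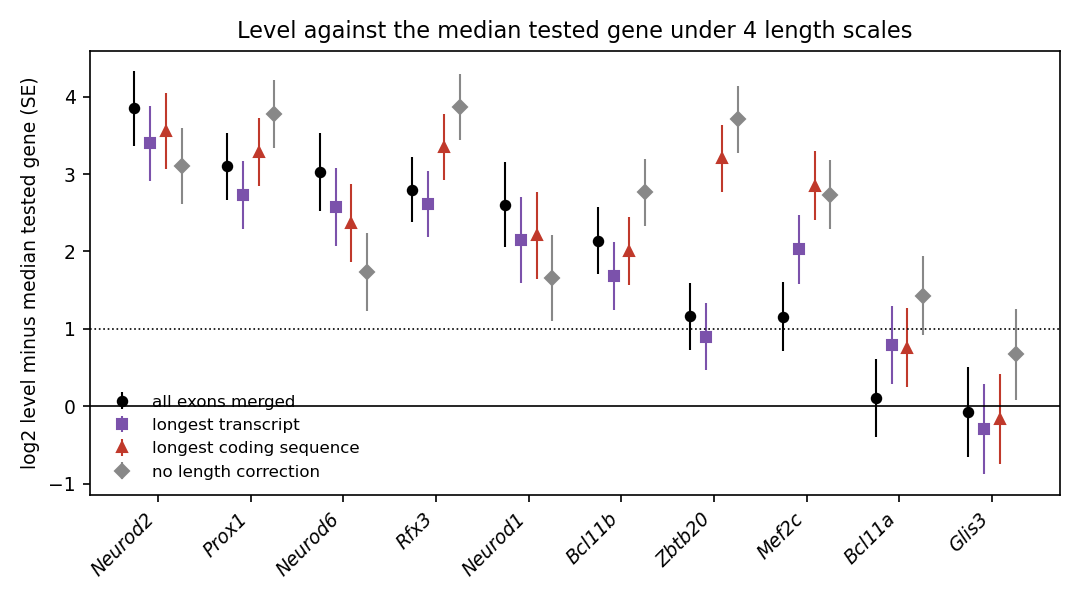
Log2 level of each gene minus the median tested gene, with limma's standard error, under 4 ways of correcting for length; the solid line is the median gene and the dotted line the log2 threshold of 1. Zbtb20 and Mef2c move most, from 1.16 each per kb of merged exon to 3.20 and 2.85 per kb of coding sequence.

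The order of levels was loose between neighbours, and it turned in part on the length used. A difference was called beyond its spread where it had 1 sign in 3 of 3 libraries and a mean above the SD of the 3 differences, because with 3 libraries the smallest p of an exact two-sided sign-flip test is 0.25. By that measure 29 of 45 pairs differed per kb of merged exon, as did 2 of 9 neighbouring pairs. Bcl11b exceeded Zbtb20 by 0.98 (SD 0.53) on the log2 scale, but Bcl11b minus Zbtb20 was -1.20 per kb of coding sequence and -0.94 without length correction, each with 1 sign in 3 of 3 libraries. Mef2c exceeded Bcl11a by 1.05 (SD 0.13), and by 1.24 to 2.09 on the other length scales. Of the 29 pairs, 23 differed in the same direction per kb of longest transcript, 19 per kb of coding sequence and 14 without length correction. In the opposite direction, 0, 1 and 3 of them differed on those scales. Zbtb20, in place 7 per kb of merged exon, was in place 8, 4 and 3 of the 10 on them, and Neurod2 in place 1, 1 and 4. Neurod2 exceeded its neighbour Prox1 by 0.75 (SD 0.76), in 3 of 3 libraries, and by 0.66 per kb of longest transcript. Per kb of coding sequence, Neurod2 minus Prox1 was 1.15, -0.05 and -0.27 in replicates 1 to 3. Without length correction it was 0.20, -0.99 and -1.22. Prox1 and Neurod6 differed by 0.07 (SD 1.66).

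Among relatives, Bcl11a was below Bcl11b by a log2 difference of -2.03 (SD 0.76), in 3 of 3 libraries. With the longest transcript of each as the length that difference was -0.90. Mef2c was below its relative Mef2a by a log2 difference of -1.05 (SD 0.995), with -2.19, -0.59 and -0.37, and without replicate 1 the difference was -0.48. Against Mef2d the difference of -1.54 (SD 1.83) was within its spread. Mef2a and Mef2d lay above the median gene themselves, with Mef2a at 29.0 ± 9.53 and Mef2d at 50.7 ± 44.6 CPM per kb (SD, n = 3). Rfx3 and Glis3 belong to different families, and both lie on chromosome 19. Rfx3 exceeded Glis3 by 2.87 (SD 0.36, n = 3) on the log2 scale, with 2.47, 2.997 and 3.15 in replicates 1 to 3.

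Between libraries, the NeuroD genes spread most and Bcl11b least. The range over the 3 libraries of log2 CPM was 3.03 for Neurod1, 2.76 for Neurod2 and 1.93 for Neurod6. For tested genes in the same decile of mean log2 CPM, not corrected for length, the median range was 1.41, 1.17 and 1.31. These ranges stood at the 91.4th, 95.2nd and 78.9th percentile of their deciles. Bcl11b had a range of 0.49 and Rfx3 of 0.68, at the 12.3rd and 21.7th percentile, and the other 5 genes ranged from 0.84 to 1.39. The median range of the 10 genes was 1.30, against 1.82 over all tested genes. However, 6 of the 10 lay in the top decile of mean log2 CPM, where the median range was 1.17. Those 6 included Zbtb20 and Mef2c but not Neurod6 and Neurod1, so they were not the 6 called above the median gene. Against the median of its own decile, the range was larger for 5 of the 10 genes and smaller for the other 5. The median range of the 10 was 0.64 without replicate 1, 0.94 without replicate 2 and 0.78 without replicate 3. A range over fewer libraries tends to be smaller by construction, so these values cannot be set against the 1.30. Replicate 3 was the lowest library for 6 of the 10 genes, against 31.5% of all tested genes, and replicate 1 for Neurod6, Mef2c and Bcl11a. With DESeq2 size factors the lowest library was the same for each gene, while the highest changed from replicate 2 to replicate 1 for Bcl11b and Glis3. Single libraries set some ranges: without replicate 3 that of Neurod1 was 0.21, and without replicate 1 that of Neurod6 was 0.23.

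**Figure D4:**
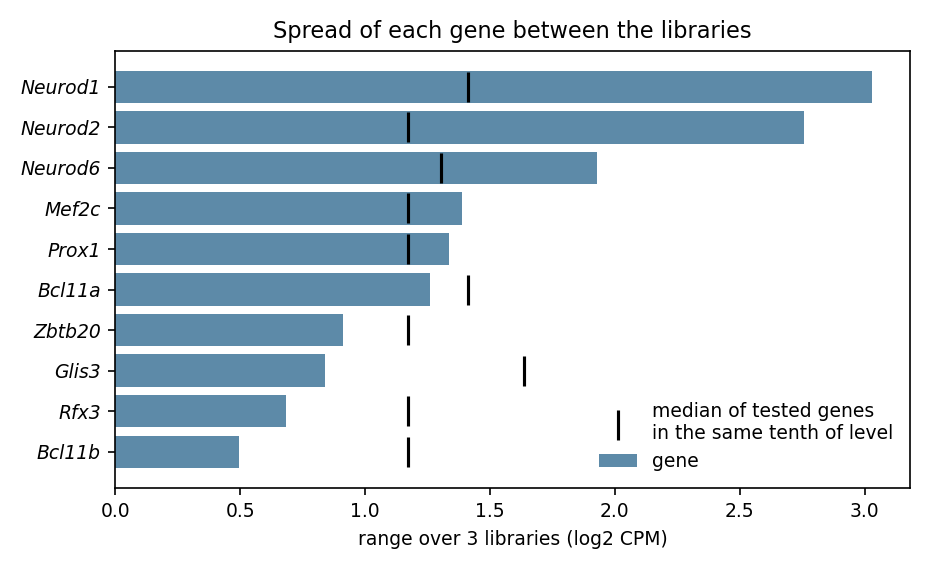
Bars, from 0, are the range of log2 CPM over the 3 libraries for each gene. Black ticks are the median range of tested genes in the same decile of mean log2 CPM. Neurod1 and Neurod2 reach 3.03 and 2.76, more than 2 times their ticks, and Bcl11b has the smallest range at 0.49.

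Genes that work with the 10, or that do the same task in other cells, were read from 9 lists chosen with earlier results known; the medians below cover tested genes only. The 10 genes had a median log2 level of 2.37, and all tested genes of -0.14. The 9 proneural helix-loop-helix genes, which act in progenitors, were nearly silent: 1 passed the filter, Bhlhe22 at 11.4 ± 3.22 CPM per kb (SD, n = 3), and 0 were called. Neurog1, Neurog3, Atoh1, Atoh7 and Bhlhe23 had 0 counts in each library, which allows up to 0.707, 0.131 and 0.257 CPM in replicates 1 to 3. Among E protein genes, the partners of NeuroD, and the Id genes that block them, 3 of 7 passed the filter and 1 was above the median gene. That gene was Tcf4, an E protein gene, at 30.0 ± 6.62 CPM per kb (log2 level 2.29, adjusted p = 0.0241, limma), a call that ended without replicate 2 and without replicate 3. Id3 had 38.3, 7.48 and 2.58 CPM per kb, highest in replicate 1, and Id1 had 0, 0 and 1 counts. For Mef2 relatives and regulators, 8 of 10 passed the filter, 2 were above (Mef2a and Mef2d) and 1 below (Mapk7, an upstream kinase, log2 level -2.96), and Mef2b was at 0 counts in each library. The count above became 1 without replicate 2 or replicate 3, and that below became 0 when any 1 replicate was left out.

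Of the Prox, Rfx and Glis relatives, 5 of 12 passed the filter and 0 were called. Rfx7 was highest, at 23.7 ± 9.91 CPM per kb (log2 level 1.90, adjusted p = 0.121, limma), followed by Rfxap at 9.59 ± 6.59, and Rfx6 and Rfx8 were at 0 counts in each library. Without replicate 1, 1 of them was above and 1 below the median gene. SWI/SNF and NuRD chromatin subunits, complexes that Bcl11 proteins are known to join, had 15 of 18 genes through the filter, 3 above and 0 below. The highest were Smarca2, an ATPase of the complex, at 48.8 ± 16.1 CPM per kb, Arid1a at 39.4 ± 17.8 and Smarcc2 at 36.2 ± 7.64 (SD, n = 3), which were also the 3 called, and Smarcb1, the lowest, had 0, 68 and 116 counts. The count above was 5 without replicate 1. Other factors of forebrain excitatory neurons held more calls: 20 of 23 passed the filter, 8 were above and 1 below, with a median of 1.37. Zbtb18, a repressor of the same zinc finger class as Zbtb20, reached 96.9 ± 59.4 CPM per kb and Nfix 83.9 ± 60.7, whereas Cux2 had 1, 19 and 5 counts. The gene below was Dach1 (log2 level -3.32, adjusted p = 0.0243, limma). The count below became 0 without replicate 2.

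In the main test, the lists of transcription factors of other cell states had no gene called above the median gene. Progenitor and immature neuron factors had 3 of 8 genes through the filter, 0 above and 1 below (Pax6, log2 level -3.47, adjusted p = 0.0247, limma), a call that ended without replicate 2 and without replicate 3. Sox11 led at 15.4 ± 12.6 CPM per kb, highest in replicate 1 at 29.9, Sox1 had 4, 245 and 740 counts, and Eomes, a marker of intermediate progenitors, had 0 in each library. GABAergic factors had 8 of 16 through the filter, 0 called, and a median of -1.09; Nr2f2 led at 6.79 ± 3.14 CPM per kb, and Npas1 had 0, 3 and 0 counts. Glial and vascular factors had 7 of 15 through the filter, 0 above, 1 below and a median of -1.80. The call below was Sox10, an oligodendrocyte factor (log2 level -3.18, adjusted p = 0.00811, limma), and it ended without replicate 3. Erg, an endothelial factor, led at 25.8 ± 20.6 CPM per kb with 44.9 in replicate 3, followed by Foxc1 at 11.3 ± 9.20, and without replicate 1 there was 1 call above. Spi1, the defining factor of microglia, was at 0 counts in each library. Transcripts of other cells were nonetheless present: the 6 oligodendrocyte markers summed to 821, 709 and 1125 CPM with none at 0. Of these, 4 passed the filter and 3 were called above the median gene, Mbp and Mobp among them. The median log2 level of the tested ones was 2.56, against 2.37 for the 10 genes. Sst among the GABAergic markers (130 ± 37.7 CPM per kb, SD, n = 3) and Rgs5 among the vascular ones (86.9 ± 74.9 CPM per kb) also lay above. The 6 astrocyte markers summed to 160, 132 and 351 with Gja1 at 0 counts in replicate 1. The 6 pan-neuronal markers summed to 7352, 12775 and 8025 CPM with none at 0. The 5 mossy cell markers summed to 44.6, 47.6 and 21.1 CPM with 4 of 5 at 0 in replicates 1 and 3 and 2 of 5 in replicate 2.

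**Figure D5:**
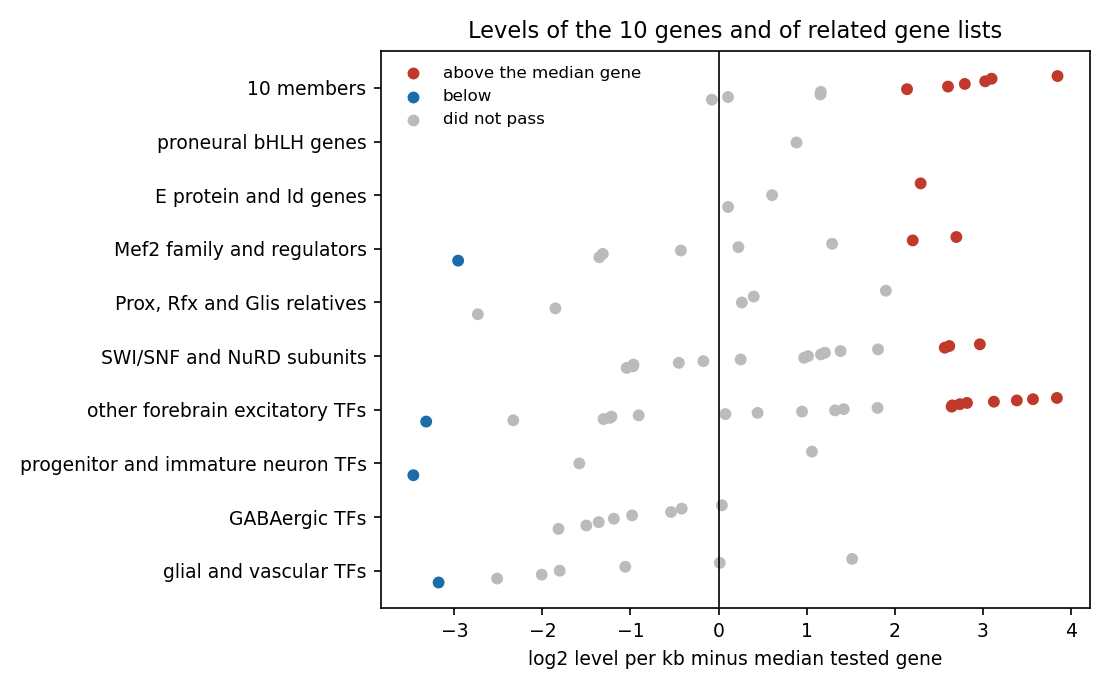
Log2 level per kb of merged exon minus the median tested gene for the 10 genes and 9 related lists. Each point is a gene that passed the filter, red if called above the median gene, blue if called below and grey if neither. The 10 genes have 6 red points and no blue one, and the other forebrain excitatory factors 8 red and 1 blue.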

How the data were processed

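Each deposited file holds raw read counts per gene symbol for 1 library, as the authors left them, without normalisation or pooling. Per the submitters' processing notes, the tools were STAR 2.0.0e and HTSeq, and the build was mm10. The annotation and strand setting behind the counts were not stated; the 6 rows that name no gene were dropped. The pairs of libraries differed beyond sampling noise (chi-square per degree of freedom of at least 195), so none was a duplicate.

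edgeR 4.0.16 in R 4.3.3 gave TMM factors of 0.793, 1.19 and 1.06 and log2 CPM, to which a prior count of 2 was applied. filterByExpr with 1 group kept 8510 genes; 8155 (95.8%) had an exon length in GENCODE vM21 on GRCm38 and were tested. That annotation may not be the one behind the counts. log2 CPM per kb of merged exon, minus the median tested gene of the library, was tested with limma 3.58.1 (TREAT, trend, intercept only, log2 threshold 1) with Benjamini-Hochberg adjustment over all tested genes at 0.05. edgeR's quasi-likelihood test does not take a design of 1 group. Members and lists were chosen with earlier results of these data known. Named were the 10 members and, in each related list, the 2 highest and the lowest gene; genes in a count of 5 or fewer, at 0, or of a paralog pair were added. Some genes that this rule names are not reported here.

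Alternatives were no length, longest transcript or longest coding length, DESeq2 1.42.0 size factors or Wald test, 2 other filters, a prior count of 0.5, a log2 threshold of 0.5 and each replicate left out; thinning to the total of replicate 1 was added after seeing the data. The same steps, tested on simulated data with 8155 genes, called 92.5% of the 200 that had been placed 16-fold over the median and 0% of those placed at it. Genes placed at the median lie inside the log2 threshold of 1, so the 0% was to be foreseen. No smaller fold was simulated, so recovery at levels such as the 2.14 of Bcl11b was not measured. The limit given for a gene at 0 counts is 3 counts; limits and intervals leave out PCR duplication and other error beyond counting. Figures were drawn with matplotlib 3.10.9.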

Additional observations from a re-analysis of the deposited data

How the results depend on the processing

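No paired analysis was possible because the 3 libraries form 1 group. Neurod2 and Prox1 stayed above the median gene under all 13 alternatives. The median of the 10 levels, taken per library and averaged, was 2.12; it was 2.73 with no length correction, 4.06 with no filter on low counts and 2.79 with a filter of 1 CPM in 2 libraries, where the median is taken over more, lower genes. Under those same settings in turn, Glis3 changed sign from -0.08 to 0.67, 1.86 and 0.59; it was 0.26 without replicate 1, -0.28 without replicate 2 and 0.33 without replicate 3. Bcl11a, at 0.11, was -0.020 in the DESeq2 Wald test and -0.12 after thinning, and -0.20 to 0.91 with 1 replicate left out. Neither gene was called in the main test. The count of 6 members above, beside 10.6% of all tested genes, was 8 with no filter (19.5%), 5 in the Wald test (7.66%), 4 with the longest transcript (10.4%) and 4 after thinning (9.51%), and 2 to 7 with 1 replicate left out; 0 were below throughout. Neighbouring pairs beyond their spread numbered 1 in place of 2 with no length correction and with coding length. Related genes above, 14 in all, became 30 with no filter and 9 in the Wald test, and 9 to 20 with 1 replicate left out. Those below, 4 in all, became 17 with no filter and 0 with the 1 CPM filter, and 1 to 4 with 1 replicate left out. The causes of the other changes were not tested. Depth limits genes with few counts in replicate 1.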
